A study of Mus musculus with 8 samples.

Results

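Immediate early genes are transcribed within minutes of a stimulus, from growth factors to mechanical or oxidative stress. The 10 genes described here, Egr1, Egr2, Egr3, Atf3, Ier2, Ier3, Dusp1, Zfp36, Btg2 and Nr4a1, were chosen by name for this role, with earlier results of these data known. All 10 were present in each of the 3 tables of the series, which hold 26340 gene symbols for keratinocytes, 46036 for depilated skin and 46048 for wounded skin, 21441 of them common to all 3 tables.

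The series holds 8 RNA-seq libraries from C57BL/6 mice, labelled JunB +/+ (wild type) or JunB -/- (JunB cKO). JunB is a subunit of AP-1, a dimeric transcription factor that is itself encoded by early response genes. In the JunB cKO mice a floxed JunB gene was deleted by Cre recombinase under the K14 promoter, which is active in basal epidermal cells, so that cells which never expressed K14, such as those of the dermis, keep the gene. Keratinocytes without treatment gave 1 library per genotype, skin taken 4 days after hair depilation gave 1 library per genotype, and skin taken 30 days after wounding gave 2 libraries per genotype. The tables give 1 value per genotype in each condition, also for the wounds, and RNA was pooled from several samples of a group, so that no spread between animals could be computed and no difference below was tested. All levels are FPKM, fragment counts divided by transcript length and by library size, in which genes can be compared per unit of length.

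Transcription of these genes needs no newly made protein: factors already bound at their promoters, such as the serum response factor with its Ets partners and CREB, are phosphorylated by MAP kinases and other kinases, and the transcripts are short-lived. The group holds both arms of the response. Egr1, Egr2, Egr3, Atf3 and Nr4a1 encode transcription factors that carry the signal on to later genes, whereas Dusp1 (a MAP kinase phosphatase), Zfp36 (tristetraprolin, which promotes the decay of AU-rich mRNAs) and Btg2 (an antiproliferative adaptor of mRNA deadenylation) dampen it. The separation of tissue into single cells is known to induce many of them.

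Junb, the targeted gene, stood at 268 FPKM in wild type and 31.4 FPKM in JunB cKO keratinocytes, at 40.8 and 11.7 FPKM in depilated skin, and at 33.4 and 15.4 FPKM in wounded skin, lower in the library labelled JunB cKO in all 3 tables. In both kinds of skin Junb had 2 entries, and these values are those of the entry with the larger summed FPKM alone. The keratinocyte table had keratin markers (Krt5, Krt14, Krt1 and Krt10) at 917 to 3320 FPKM in wild type and fibroblast markers (Col1a1, Col1a2, Col3a1 and Dcn) at 2.66 to 3.63 FPKM. Depilated skin carries the tissue label keratinocyte, but the same fibroblast markers stood there at 525 to 2559 FPKM in wild type, and in wounded skin at 1314 to 5055 FPKM. Depth was estimated from the step that 1 read makes in the FPKM of short receptor genes. A transcript of 1 kb at 1 FPKM was worth 13.3 reads in wild type and 3.92 reads in JunB cKO keratinocytes, a ratio of 3.39. The estimates were 12.9 and 10.1 reads in depilated skin, where they rest on 1 and 3 loci, and 34.1 and 31.7 reads in wounded skin, the latter from 2 loci. Intervals below are exact 95% intervals on read numbers estimated in this way. They cover counting error only and not the spread between animals. Without molecular identifiers, copies of the same fragment count as separate reads, so that the intervals can be too narrow.

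To compare the levels of the early genes between conditions, the 3 tables were set side by side, although each was normalised on its own. The early genes were among the more abundant transcripts of the isolated keratinocytes and stood nearer the middle of the range in both kinds of skin. In wild type keratinocytes they lay between 34.3 and 283 FPKM with a median of 177 FPKM, and each was above at least 89.4% of the genes with a value above 0. Their median was 9.64 FPKM in wild type depilated skin and 11.0 FPKM in wild type wounded skin. The median of their percentiles within a column was 98.5 in wild type keratinocytes, 53.7 in depilated skin and 69.4 in wounded skin. A percentile does not depend on the scaling, but it does depend on which genes of the column were above 0. Egr2, at 34.3 and 32.4 FPKM in wild type keratinocytes and depilated skin, stood at percentiles 89.4 and 80.4.

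Of the 10 genes, 9 were at least 2-fold higher in wild type keratinocytes than in wild type depilated skin, against 12.5% of 12265 gene symbols, and the same number exceeded wounded skin by this margin, against 10.9% of 12906. In JunB cKO 9 of 10 passed the same limit against depilated skin, where 20.4% of 14373 symbols did, and 9 of 10 against wounded skin, where 17.1% of 14953 did. The median log2 ratio of the members in wild type, after adding 1 to each FPKM, was 3.33 against depilated and 3.51 against wounded skin, while that of all genes was -0.57 and -0.66. In JunB cKO the members' medians were 2.49 and 3.22, against -0.36 and -0.45 for all genes. Tissue, isolation of the cells with trypsin, separate scaling and the different symbol and locus sets of the tables cannot be told apart here.

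**Figure D1:**
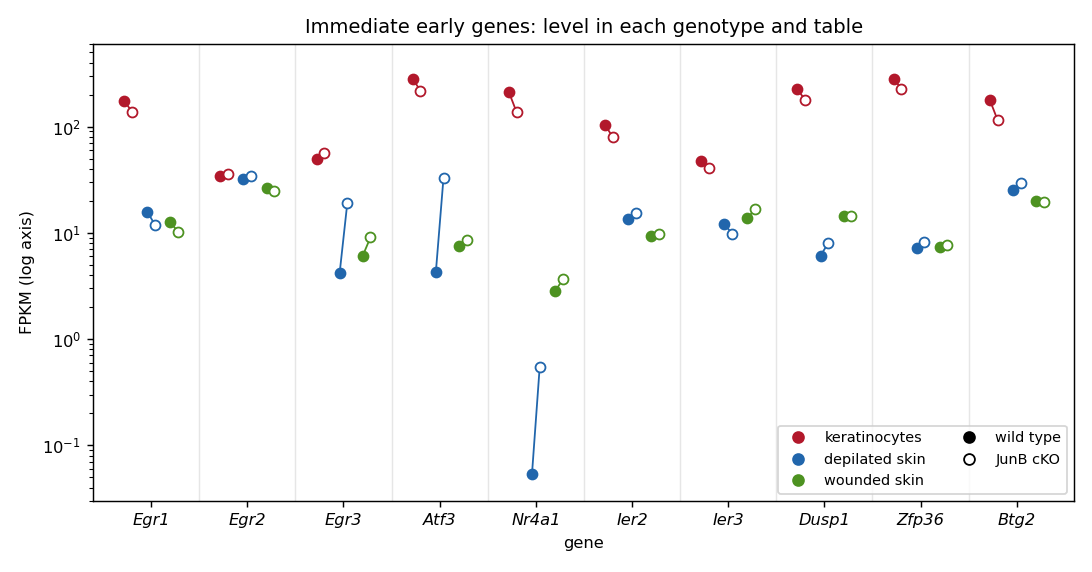
FPKM of each of the 10 genes on a log axis, with filled points for wild type, open points for JunB cKO and 1 colour per table. 9 genes sit at least 2-fold higher in keratinocytes than in either kind of skin in both genotypes, Egr2 lies between 24.8 and 35.6 FPKM throughout, and Nr4a1 in depilated skin lies under 1 FPKM.

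The size of this difference was uneven between the genes, as the ratios in wild type show, here with nothing added. Atf3, a stress-induced factor of the ATF/CREB family, stood at 282 FPKM in wild type keratinocytes, 4.25 FPKM in depilated and 7.55 FPKM in wounded skin, ratios of 66.4 and 37.4. Zfp36 had 283, 7.23 and 7.42 FPKM in the same order, ratios of 39.1 and 38.1. Dusp1 had 227, 6.10 and 14.3 FPKM, ratios of 37.3 and 15.9. Nr4a1, which encodes the orphan nuclear receptor Nur77, had 211 FPKM in wild type keratinocytes and 2.82 FPKM in wounded skin, a ratio of 74.8. In wild type depilated skin its 0.0539 FPKM corresponds to about 2 reads, so that no ratio is given. In wild type, these genes, which include regulators as well as transcription factors, thus had the widest gap between isolated cells and skin. In JunB cKO the ratio of Atf3 over depilated skin was 6.56, below that of Egr1 at 11.7.

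Egr1, the zinc finger factor most used as a readout of MAP kinase signalling, stood at 175 FPKM in wild type keratinocytes, 15.8 FPKM in depilated and 12.6 FPKM in wounded skin, and its paralogue Egr3 at 49.3, 4.19 and 6.09 FPKM. Ier2, a short early response protein of the nucleus, had 103, 13.6 and 9.38 FPKM. Btg2 had 178, 25.1 and 20.0 FPKM, ratios of 7.11 and 8.91. Ier3, an early response gene linked to the survival of stressed cells, had 48.0, 12.1 and 13.7 FPKM and the smallest ratios of the 9 genes in wild type, 3.98 and 3.49. Egr2, known in skin from the hair follicle and in nerve from myelinating Schwann cells, was the exception, with 34.3, 32.4 and 26.6 FPKM. It ranked last of the 10 genes in keratinocytes and first in both kinds of skin in wild type.

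The order of the levels was nearly the same in the genotypes within keratinocytes. Zfp36, Atf3 and Dusp1 led in both, and Ier2, Egr3, Ier3 and Egr2 closed the list in both. In the middle, Nr4a1, Btg2 and Egr1 were in this order in wild type at 211, 178 and 175 FPKM, whereas in JunB cKO Egr1 came first with 138 FPKM, followed by Nr4a1 with 137 FPKM and Btg2 with 116 FPKM. Without replicates it could not be tested which neighbours in this order differ.

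Next, the genotypes were compared within the keratinocyte table. Most of the early genes were somewhat lower in JunB cKO: 8 of 10 were lower and 2 higher, and the median of their log2 ratios of JunB cKO over wild type was -0.35. Log2 ratios between genotypes were taken after adding 1 to each FPKM, whereas the counting intervals beside them are those of the log2 ratio with nothing added, so that at low FPKM a ratio can lie outside its interval. None passed a 2-fold difference in either direction, whereas 15.4% of the 15883 symbols with at least 1 FPKM were 2-fold higher and 1.4% were 2-fold lower. In bulk RNA, fewer cells of a type and less RNA per cell cannot be told apart.

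The whole table leaned the same way at the levels of these genes. The median log2 ratio was -0.03 over all 15883 symbols but -0.23 over the 6343 symbols with at least 10 FPKM, of which 78.7% were lower in JunB cKO. The 8 of 10 lower members are near this share, and are no result about the group. Taken relative to the latter median, a scaling chosen after the data were seen, 7 members were lower and 3 higher (Egr2, Egr3 and Ier3, the last having turned its direction), and their median was -0.12. At this level only 1.62% were 2-fold higher and 1.80% were 2-fold lower. Among the 558 symbols with at least 100 FPKM the median was -0.20, and the 7 early genes among them had a median of -0.37. Lower values in JunB cKO were thus common among abundant genes, and the libraries also differed in depth. Of 1049 short receptor loci, 38 were above 0 in wild type and 887 in JunB cKO, although the latter had the lower estimated depth. The part of these differences in the result was not tested.

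Among the transcription factors, Nr4a1 had 211 FPKM in wild type and 137 FPKM in JunB cKO keratinocytes, a log2 ratio of -0.62 with a counting interval from -0.71 to -0.54. Atf3 had 282 and 217 FPKM, a log2 ratio of -0.37 (interval -0.45 to -0.30), and Egr1 had 175 and 138 FPKM, a log2 ratio of -0.34 (interval -0.41 to -0.28). The remaining Egr genes did not share this direction. Egr3 had 49.3 and 56.6 FPKM, a log2 ratio of 0.20 (interval 0.09 to 0.31), and Egr2 had 34.3 and 35.6 FPKM, a log2 ratio of 0.05 whose interval of -0.11 to 0.21 includes 0.

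All 3 feedback regulators were lower, on the relative scale too. Btg2 had 178 FPKM in wild type and 116 FPKM in JunB cKO, a log2 ratio of -0.62 (interval -0.71 to -0.53) that equalled that of Nr4a1. Dusp1 had 227 and 176 FPKM, a log2 ratio of -0.36 (interval -0.45 to -0.28), and Zfp36 had 283 and 227 FPKM, a log2 ratio of -0.31 (interval -0.38 to -0.25). Of the early effectors, Ier2 had 103 and 79.7 FPKM, a log2 ratio of -0.37 (interval -0.52 to -0.23). Ier3 had 48.0 and 41.1 FPKM, a log2 ratio of -0.22, and its interval of -0.47 to 0.01 just includes 0. The interval lay below 0 for 7 genes and above 0 for 1 gene, which says nothing about the spread between animals. The same count was not made over all symbols. Since 78.7% of symbols with at least 10 FPKM were lower, it is no result about the group.

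**Figure D2:**
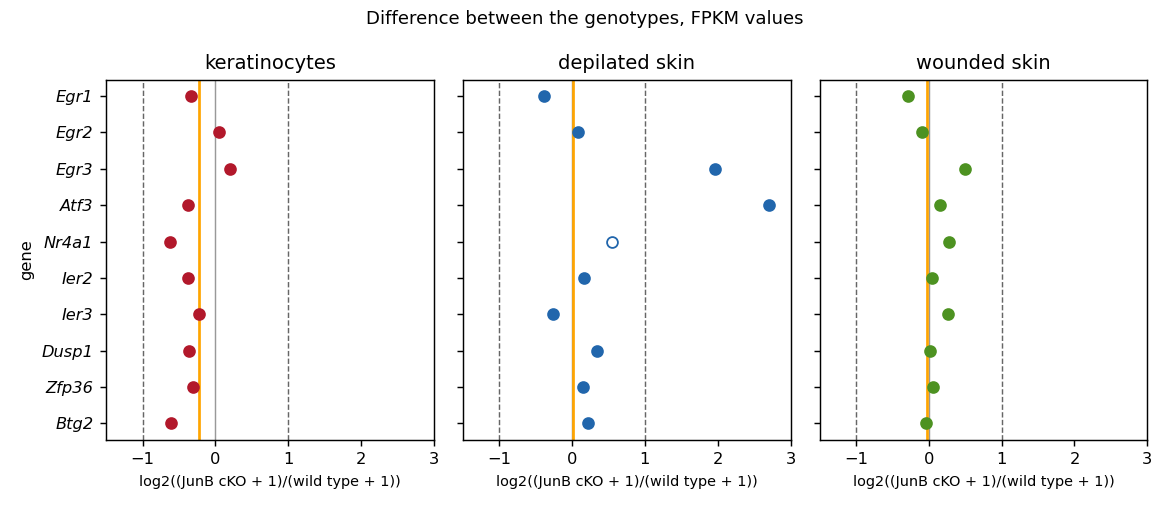
Log2 ratio of JunB cKO over wild type for each gene in each table, from FPKM plus 1, with dashed lines at a 2-fold difference and an orange line at the median of all symbols with at least 10 FPKM. Only Egr3 and Atf3 in depilated skin lie beyond a dashed line, and the open point, Nr4a1 in depilated skin, is under 1 FPKM in both genotypes.

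Since immediate early genes share few kinds of control site, the promoters of the members were searched for the sites through which immediate early genes are known to be induced. RefSeq promoters (build GRCm38.p6, 250 bases before to 50 bases after the start) were found for 7 of the 10 genes and were lacking for Egr1, Egr3 and Ier2. A CArG box, the site of the serum response factor, was found 72 bases upstream of the start in Egr2 and 58 bases upstream in Zfp36, and is present in 1.63% of 32851 promoters. The full cAMP response element TGACGTCA was found 143 bases upstream in Dusp1 and 166 bases upstream in Btg2 (1.79% of promoters). Both strands were searched, and each full element holds the core TGACG 2 times. The core was present in 5 of the 7 genes, against 20.8% of promoters, and 4 times in Nr4a1, where 0.231% of promoters hold 4 or more. The 80 bases around these sites are shown 5′ to 3′ on the strand of the gene, as examples of each kind of site. The kinds overlap between the genes: Egr2 holds the core 2 times besides its CArG box, Dusp1 holds it 3 times and Btg2 2 times, and Atf3, not shown, holds it 1 time. Capitals mark the CArG box in Egr2, the CArG box and the Egr site GCGGGGGCG in Zfp36, the full element in Dusp1 and Btg2, and the core and the Egr site in Nr4a1, where both kinds of site are on the opposite strand. Copies of the core outside a full element are in lower case in the other genes.
Egr2, chr10:67537762-67537841, plus strand: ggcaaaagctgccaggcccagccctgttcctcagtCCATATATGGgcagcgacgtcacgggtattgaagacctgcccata
Zfp36, chr7:28379266-28379345, minus strand: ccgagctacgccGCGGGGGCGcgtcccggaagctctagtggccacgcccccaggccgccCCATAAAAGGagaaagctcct
Dusp1, chr17:26508572-26508651, minus strand: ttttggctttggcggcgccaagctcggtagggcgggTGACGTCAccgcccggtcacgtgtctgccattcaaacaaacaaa
Btg2, chr1:134079278-134079357, minus strand: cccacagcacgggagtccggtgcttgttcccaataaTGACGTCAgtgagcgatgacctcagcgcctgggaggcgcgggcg
Nr4a1, chr15:101266754-101266833, plus strand: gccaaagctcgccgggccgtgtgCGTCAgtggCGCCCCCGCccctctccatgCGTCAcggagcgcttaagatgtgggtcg

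The Egr site GCGGGGGCG, through which the Egr proteins can act on each other and on their targets, was found 105 bases upstream in Zfp36 and 60 bases upstream in Nr4a1 (2.91% of promoters). Its variant GCGTGGGCG was in 0 of the 7 promoters (0.612% of all), and the AP-1 site TGACTCA, to which JunB-containing dimers can bind, was also in 0 of 7 (5.20% of all). These are matches of letters in a short window and no measure of binding. The genes with matching sites were not alike in keratinocytes. Egr2, with a CArG box, had a log2 ratio of 0.05 and Zfp36, with the same box, -0.31. Dusp1 and Btg2, both with the full response element, had -0.36 and -0.62.

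In depilated skin, 2 members stood out with higher levels in JunB cKO. Atf3 had 4.25 FPKM in wild type and 33.2 FPKM in JunB cKO, a log2 ratio of 2.70, and stood at percentile 36.6 of the wild type and 81.6 of the JunB cKO column. Egr3 had 4.19 and 19.2 FPKM, a log2 ratio of 1.96, at percentiles 36.3 and 70.8. These levels rest on an estimated 108 and 665 reads for Atf3 and 212 and 766 reads for Egr3. The counting intervals were 2.67 to 3.28 and 1.98 to 2.43. Yet 2-fold differences were common in this pair of libraries: 18.2% of 16221 symbols were 2-fold higher and 16% were 2-fold lower. A count of 2 higher and 0 lower among the 9 members with at least 1 FPKM is near that background for the higher genes, and is no result about the group.

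The other members differed little between the genotypes. Egr1 had 15.8 FPKM in wild type and 11.9 FPKM in JunB cKO, a log2 ratio of -0.39 (interval -0.57 to -0.26), and Ier3 had 12.1 and 9.85 FPKM, a log2 ratio of -0.27 whose interval of -0.64 to 0.06 includes 0. Egr2 had 32.4 and 34.2 FPKM, Ier2 had 13.6 and 15.5 FPKM, and Zfp36 had 7.23 and 8.13 FPKM, with log2 ratios of 0.08, 0.17 and 0.15 and intervals that include 0. Btg2 had 25.1 and 29.4 FPKM, a log2 ratio of 0.22 (interval 0.09 to 0.37). Among the regulators, which were all lower in JunB cKO keratinocytes, all 3 were higher in this table, though by less than 2-fold. In keratinocytes 78.7% of symbols with at least 10 FPKM were lower. In depilated skin 48.8% of symbols with at least 1 FPKM were lower. The change of direction is thus no result about the regulators. The median of the 9 members was 0.17, against 0.03 for all genes.

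Dusp1 and Nr4a1 need a closer description in this table. Dusp1 had 6.10 FPKM in wild type and 7.99 FPKM in JunB cKO, a log2 ratio of 0.34 (interval 0.06 to 0.72), but a second entry on the same coordinates, chr17:26505590-26513335, held 0 FPKM in wild type and 4.60 FPKM in JunB cKO. With both entries summed, the log2 ratio was 0.94. Nr4a1 had 0.0539 and 0.546 FPKM, about 2 and 14 reads, a ratio of 10.1 with nothing added, with a counting interval from 2.04 to 80.7, and a log2 ratio of 0.55 after adding 1. With both values under 1 FPKM it was not counted above.

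Several markers of other cell types differed between these libraries. All 4 fibroblast markers were lower in JunB cKO, 3 of them by more than 2-fold, and their summed level was 5007 FPKM in wild type and 1782 FPKM in JunB cKO. Of the leukocyte markers (Ptprc, Cd68, Lyz2 and Cd3e) 3 of 4 were 2-fold lower and Cd3e was at 2.53 and 2.64 FPKM, with sums of 199 and 70.7 FPKM, and the muscle genes Ckm and Myh4 had sums of 37.9 and 4.58 FPKM. Other lists were mixed. Of the endothelial markers, Cdh5 was 2-fold lower, with 26.0 and 10.6 FPKM, while Pecam1 had 29.5 and 29.6 FPKM and Kdr 4.32 and 3.23 FPKM. The adipocyte markers summed to 20.8 and 21.1 FPKM, with Adipoq higher at a log2 ratio of 0.92, Plin1 lower at -0.82 and Cidec lower at -2.28. The 4 keratins summed to 5870 FPKM in wild type and 7536 FPKM in JunB cKO, with Krt5, Krt1 and Krt10 higher and Krt14 lower, at 2446 and 1709 FPKM. The part of these shifts in the values of Atf3 and Egr3 was not tested.

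**Figure D3:**
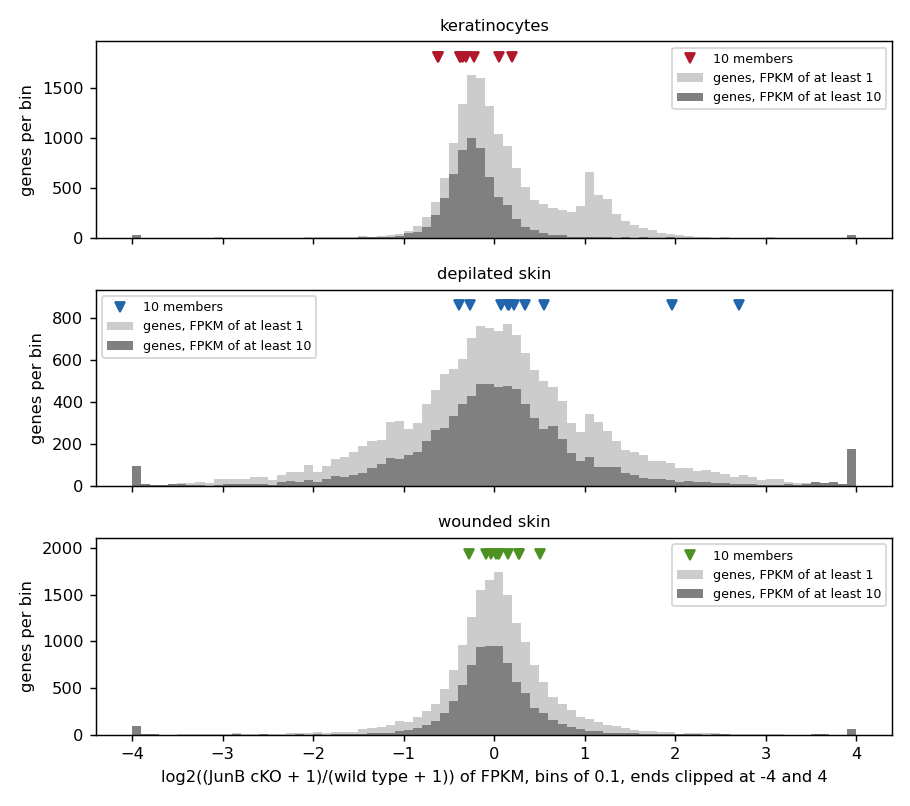
Number of gene symbols per bin of the log2 ratio of JunB cKO over wild type in each table, for symbols with at least 1 FPKM (light) and at least 10 FPKM (dark), with triangles at the 10 members. The spread of all genes is widest in depilated skin, where 18.2% lie above a 2-fold difference, and Atf3 and Egr3 lie on its right side at 2.70 and 1.96.

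In skin 30 days after wounding, most of the early genes were at similar levels in both genotypes. None of the 10 passed a 2-fold difference, against 5.69% of 17346 symbols that were higher and 5.23% that were lower. This count is near the background, and is no result about the group. The median log2 ratio was 0.05, against 0.01 for all genes. The counting interval lay above 0 for 3 genes and below 0 for 2 genes. Each value stands for 2 libraries that the table does not separate. Egr3 was the farthest from 0, with 6.09 FPKM in wild type and 9.04 FPKM in JunB cKO, a log2 ratio of 0.50 (interval 0.44 to 0.70). Egr1 had 12.6 and 10.2 FPKM, a log2 ratio of -0.28 (interval -0.40 to -0.20), and Egr2 had 26.6 and 24.8 FPKM, a log2 ratio of -0.09. The 3 Egr genes were thus again divided, Egr1 lower and Egr3 higher, as in both other tables.

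Nr4a1 had 2.82 FPKM in wild type and 3.64 FPKM in JunB cKO, a log2 ratio of 0.28 (interval 0.11 to 0.61), and Atf3 had 7.55 and 8.52 FPKM, a log2 ratio of 0.16. Ier3 had 13.7 and 16.8 FPKM, a log2 ratio of 0.27 (interval 0.12 to 0.46). Ier2 had 9.38 and 9.69 FPKM, a log2 ratio of 0.04. The feedback regulators were also at nearly equal levels. Dusp1 had 14.3 and 14.5 FPKM, Zfp36 had 7.42 and 7.73 FPKM, and Btg2 had 20.0 and 19.5 FPKM, with log2 ratios of 0.02, 0.05 and -0.04 and intervals that include 0.

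Across the tables, Egr1 was lower in JunB cKO in all 3, by log2 ratios of -0.34, -0.39 and -0.28, and Egr3 was higher in all 3, by 0.20, 1.96 and 0.50. Of the 9 members with at least 1 FPKM in every table, 1 was thus lower and 1 higher throughout, against 16.1% and 9.21% of 10791 symbols, so that the count is near the background. Their counting intervals leave out 0 each time. On the relative scale of the keratinocytes Egr1 was still lower and Egr3 higher. No other member had an interval on the same side of 0 in every table. Egr1 (ENSMUSG00000038418.7) is a gene of 2 exons at chr18:34859823-34864984 on the plus strand, and Egr3 (ENSMUSG00000033730.4), also of 2 exons, lies at chr14:70077203-70082614 on the plus strand. Both positions are those of the GENCODE M21 annotation of the same build as the tables.

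The extent of the locus over which a symbol was counted was not the same in each table. Atf3 (annotated at chr1:191170296-191218039, minus strand) was given a locus of 13038 bases in keratinocytes and of 47744 bases in both kinds of skin. Ier3 (chr17:35821684-35822923, plus strand) had a locus of 26390 bases in keratinocytes and 26395 bases in depilated skin but of 1240 bases, the annotated gene, in wounded skin. Zfp36 (chr7:28376784-28380253, minus strand) had 2445 bases in keratinocytes and 15925 bases in skin. The annotated positions of the others are chr10:67535475-67542188 (plus strand) for Egr2, chr8:84661331-84662852 (minus strand) for Ier2, a gene of 1 exon, chr17:26505590-26562128 (minus strand) for Dusp1, chr1:134075170-134079120 (minus strand) for Btg2 and chr15:101254269-101274795 (plus strand) for Nr4a1. Within a table both genotypes share the locus, so that this bears on the comparison between tables, where its part was not tested.

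To see whether other early response genes behaved alike, 52 further genes were taken from lists of AP-1 subunits (without Junb), other early transcription factors, feedback regulators, stress response genes and early effectors. In keratinocytes 40 of them were lower in JunB cKO and 12 higher, and their median log2 ratio was -0.25. Relative to the median of genes with at least 10 FPKM, however, 27 were lower and 25 higher with a median of -0.02. All 7 AP-1 genes including Junb were lower, and 6 were lower on the relative scale, where Fosl2 turned higher. Fos stood at 892 FPKM in wild type and 514 FPKM in JunB cKO, Fosb at 178 and 96.7 FPKM, and Jun at 215 and 145 FPKM. None of the 52 was 2-fold lower and 2 were 2-fold higher, against 1.4% and 15.4% of all symbols. Of symbols with at least 10 FPKM, 1.80% were 2-fold lower and 1.62% were 2-fold higher. The 2 higher genes were Egr4, with 0.685 and 2.64 FPKM, and Hmox1, the heme oxygenase of the oxidative stress response, with 8.09 and 20.1 FPKM.

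In depilated skin, 48 of the 52 had at least 1 FPKM, of which 5 were 2-fold higher and 7 were 2-fold lower in JunB cKO, and the median log2 ratio was -0.0042. Both counts are smaller shares than the 18.2% and 16% of all symbols, so that the genes named here describe the table and not the lists. Socs3, which blocks JAK and STAT signalling, had 2.93 FPKM in wild type and 35.4 FPKM in JunB cKO, a log2 ratio of 3.21, and Tnfaip3 (A20, an inhibitor of NF-kappaB) had 9.43 and 31.7 FPKM. Ppp1r15a, which restores translation after stress, had 2.84 and 8.58 FPKM, Fos had 3.38 and 8.97 FPKM, and Arc had 0.408 and 2.34 FPKM. The genes that were 2-fold lower came from all 5 lists. Gadd45g had 12.8 and 4.02 FPKM, Ddit3 (CHOP) had 28.4 and 12.0 FPKM, and Jund had 30.3 and 13.0 FPKM. Fosb had 2.54 and 0.397 FPKM, Dusp4 had 1.74 and 0.183 FPKM, Csrnp1 had 3.26 and 1.10 FPKM, and Ctgf had 35.0 and 15.6 FPKM.

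In wounded skin 51 of the 52 had at least 1 FPKM. None of them was 2-fold higher and 1 was 2-fold lower, against 5.69% and 5.23% of all symbols. It was Trib3, a pseudokinase of the integrated stress response, with 1.82 FPKM in wild type and 0.393 FPKM in JunB cKO. The further genes were also set against the skin tables. In wild type, 30 of 52 were at least 2-fold higher in keratinocytes than in depilated skin and 5 at least 2-fold lower, and 27 and 7 of 52 were so against wounded skin. The shares 2-fold higher were 12.5% and 10.9% of all symbols with at least 1 FPKM, a minimum not applied to the 52. The shares of all symbols 2-fold lower were not counted. The difference from the 10 members was not tested.

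**Figure D4:**
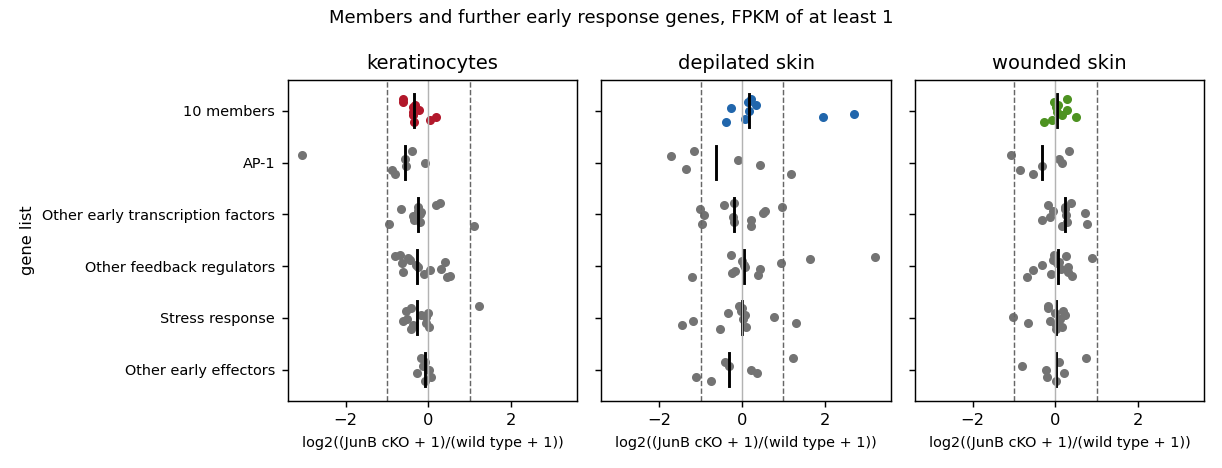
Log2 ratio of JunB cKO over wild type for the 10 members and 5 further lists in each table, 1 point per gene with at least 1 FPKM, with black bars at the medians and dashed lines at a 2-fold difference. In keratinocytes the points of most lists lie left of 0 with few beyond the dashed lines, apart from Junb at -3.05, while in depilated skin they spread to both sides, up to Socs3 at 3.21.

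Finally, genes with a pattern like that of the 10 members were sought among 8791 symbols, by the root mean square difference of centred log2(FPKM + 1) values over the 6 columns. The nearest were Gm14698 (0.181), Gm19918 (0.202), Gm7334 (0.206), Gm13202 (0.211), Gm5637 (0.217) and Sf3b5 (0.234), the last a subunit of the splicing factor SF3B. The 5 predicted genes had 10.2 to 13.4 FPKM in wild type keratinocytes and 0 to 0.0668 FPKM in wild type depilated skin, whereas Sf3b5 had 36.8 FPKM in keratinocytes and 0.976 and 2.41 FPKM in wild type depilated and wounded skin. Of the members, Egr1 was closest to the group mean with 0.336, followed by Ier2 with 0.358, and Egr2 and Nr4a1 were farthest with 1.47 and 1.52. All 6 named genes thus lay nearer this mean than any member, so that the pattern is not particular to the members. The tables were scaled separately and differ in their symbols and loci. The part of this in the pattern was not tested. Of the AP-1 genes, Jun came nearest, at 0.421 and rank 32. Fosl1, Jund, Junb, Fosl2, Fos and Fosb followed at ranks 74, 150, 884, 1393, 1441 and 1515.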

How the data were processed

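RNA was depleted of ribosomal RNA and made into directional libraries. The authors deposited FPKM values from Cufflinks and Cuffdiff on mm10, 1 per genotype in each of 3 tables, whose names and the sample titles gave the condition. The authors' fold change, p-value and q-value columns were not used. The locus with the largest summed FPKM stood for a symbol. Symbols with at least 1 FPKM in either genotype were counted past 2-fold, after adding 1. Depth came from loci of 880 to 1000 bases (tolerance 0.15 of a read), and reads of a gene from its longest coding transcript, with exact Clopper-Pearson intervals. Members and lists were chosen with earlier results of these data known. All members are named, of each further list at most 4 genes past 2-fold in each direction, and the 6 genes most alike in pattern with at least 10 FPKM in a column. Fos, Fosb, Jun and Fosl2 in keratinocytes and the AP-1 genes in the pattern were named after their values were seen. Promoters are those of RefSeq GRCm38.p6, for Egr2 the start, of 5, nearest its keratinocyte locus. Alternatives were pseudocount, minimum, scaling, summed loci and limit. Python 3.11.15 with pandas 2.3.3, numpy 2.4.6 and scipy 1.17.1 was used. Only the 2-fold count was checked on simulated data, with larger changes put in without noise, so that its outcome was fixed in advance. The depth estimate, the intervals and the promoter search were not checked in this way.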

Additional observations from a re-analysis of the deposited data

Results flagged for a closer look

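Several members had a log2 ratio of JunB cKO over wild type of opposite sign in 2 tables, with counting intervals on opposite sides of 0. The share of all symbols that do so was not counted, so that this is no result about the group. Of symbols with at least 10 FPKM, 78.7% were lower in JunB cKO in keratinocytes, 49.6% in depilated skin and 52.4% in wounded skin. Atf3 was -0.37 in keratinocytes and 2.70 in depilated skin, 3.08 apart, Dusp1 was -0.36 and 0.34, 0.70 apart, and Btg2 was -0.62 and 0.22, 0.84 apart. Nr4a1 was -0.62 in keratinocytes, 0.55 in depilated skin and 0.28 in wounded skin, 1.18 and 0.90 apart. The difference was not tested for any of these genes, since each table gives 1 value per genotype, and the value of Nr4a1 in depilated skin rests on about 2 and 14 reads. A second entry of Dusp1 in depilated skin, not used in the comparisons, held 0 FPKM in wild type and 4.60 FPKM in JunB cKO.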

How the results depend on the processing

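No paired analysis was possible because the wound table gives 1 value per genotype and the other conditions have 1 library per genotype. For the same reason, leaving out each wound library and a limma fit with and without the replicate number were not run. With a limit of 1.5-fold in place of 2-fold, 2 members were lower in JunB cKO keratinocytes in place of 0. The share of all symbols past 1.5-fold was not counted. Since 78.7% of symbols with at least 10 FPKM were lower in this table, the count is no result about the group. Centring the ratios on the median of genes with at least 10 FPKM, an alternative chosen after seeing the data, moved the median of the members in keratinocytes from -0.35 to -0.12, and Ier3 changed sign. Of 150 values of single members under the alternatives, 139 moved by less than the mean arm of the gene's counting interval, 11 by more, and 1 changed sign. Besides the centring in keratinocytes, Egr3 in depilated skin with a pseudocount of 0.01 and Dusp1 with summed entries (0.94) moved by more. The log2 ratio of Nr4a1 in depilated skin made the widest move, from 0.55 to 2.07 with a pseudocount of 0.1 and 3.12 with 0.01, yet less than its interval, which rests on about 2 and 14 reads.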
